A study of Homo sapiens with 6 samples.

Results

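The genes described here encode the subunits of the mitochondrial respiratory chain that are made from nuclear DNA. They were chosen by symbol: the NDUFA, NDUFB, NDUFC, NDUFS and NDUFV genes (complex I), SDHA to SDHD (complex II), the UQCR genes and CYC1 (complex III), the COX4 to COX8 genes (complex IV) and the ATP5 genes (complex V, ATP synthase). The rule found 86 of the 16444 genes in the authors' spike-in table, of which 39 belong to complex I, 4 to complex II, 11 to complex III, 14 to complex IV and 18 to complex V. Of these, 81 are subunit genes, 2 are readthrough symbols (ATP5J2-PTCD1 and NDUFC2-KCTD14), 1 is a pseudogene (UQCRBP1) and 2 are associated factors (ATP5S and ATP5SL). The transcript table gave a level for 82 of them among 12075 genes, and 77 passed the minimum mean of 10 FPKM (fragments per kilobase of a transcript, relative to library size) and were tested. COX6A2, COX6B2, COX7A1 and NDUFC2-KCTD14 had no FPKM, and NDUFA4L2, UQCRBP1, UQCRHL, ATP5J2-PTCD1 and ATP5S were below the minimum.

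The cells were KMS-27, a human multiple myeloma line grown from a malignant plasma cell clone. They received either siChe-1, a small interfering RNA against Che-1 (the protein of the AATF gene, a regulator of transcription), or siControl, a control small interfering RNA. Each treatment has 3 libraries, prepared from 500 ng of total RNA after depletion of ribosomal RNA. The labels do not say whether the 3 came from separate transfections, so each p-value measures the spread between libraries, which may be technical, and 1 cell line was used.

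The respiratory chain, in the inner mitochondrial membrane, passes electrons from NADH and succinate to oxygen. Complexes I, III and IV pump protons as they do so, and ATP synthase lets the protons flow back and makes ATP. Nearly all subunits are encoded in the nucleus, translated in the cytosol and imported, while a small core of complexes I, III, IV and V is encoded by mitochondrial DNA and was not analysed here. The transcription factors NRF1, GABP (an ETS factor) and YY1 are known to act at the promoters of many of the nuclear genes.

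AATF itself was listed at 14.2, 14.2 and 16.9 FPKM in the siChe-1 libraries, against 97.0, 88.8 and 119 FPKM in the siControl libraries. The 9 plasma cell markers all had a level of at least 1 FPKM. Among markers of other cells, only BACH2 of 5 mature B cell markers reached 1 FPKM, and none of the 5 T cell, 5 myeloid, 4 erythroid and 4 stromal markers did. The spike-in table was made by the authors from 5 of the 6 libraries, without siChe-1 replicate 3. Its recovered gene reads numbered 19169774 and 20249761 in siChe-1 replicates 1 and 2, and 19933411 to 21780505 in the siControl libraries. The spike-in reads numbered 835414, 1041244 and 379232 in siChe-1 replicates 1, 2 and 3, against 519573, 351573 and 376170 in siControl replicates 1, 2 and 3. Replicate 3 of siChe-1 thus had a spike-in count within the siControl range. The 3 FPKM values of a group carry no replicate number, and in FPKM the first, the second and the third library are named by their order in the deposited list.

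Relative to other genes, the respiratory chain genes were mostly slightly lower in siChe-1 cells, and few changes exceeded the spread between libraries. In limma on log2(FPKM + 1), 9 of the 77 tested members fell and 0 rose at an adjusted p under 0.05. That share of 11.7% is no larger than the 15.1% of all 6285 tested genes called lower, and 15.1% of all genes were called higher (30.2% in either direction). At an unadjusted p under 0.05, 16 members were lower and 1 was higher. All genes called above also pass that threshold, so at least 15.1% of all genes do in each direction. The log2 change was below 0 in 66 of 77 members (85.7%), against 50.6% of all genes, and its median was -0.18 over the members against -0.004 over all genes. The values were small: 74 of the 77 members had log2 changes of less than 0.5 in either direction. In simulated data with 200 of 6285 genes changed, 41% of those changed by 0.5 and 88.5% of those changed by 1 were recovered. In the measured data 1897 genes were called, and the median SE was 0.125 over the members against 0.103 over all genes. The simulated shares may therefore differ from those of the members, whose small changes can be missed.

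**Figure D1:**
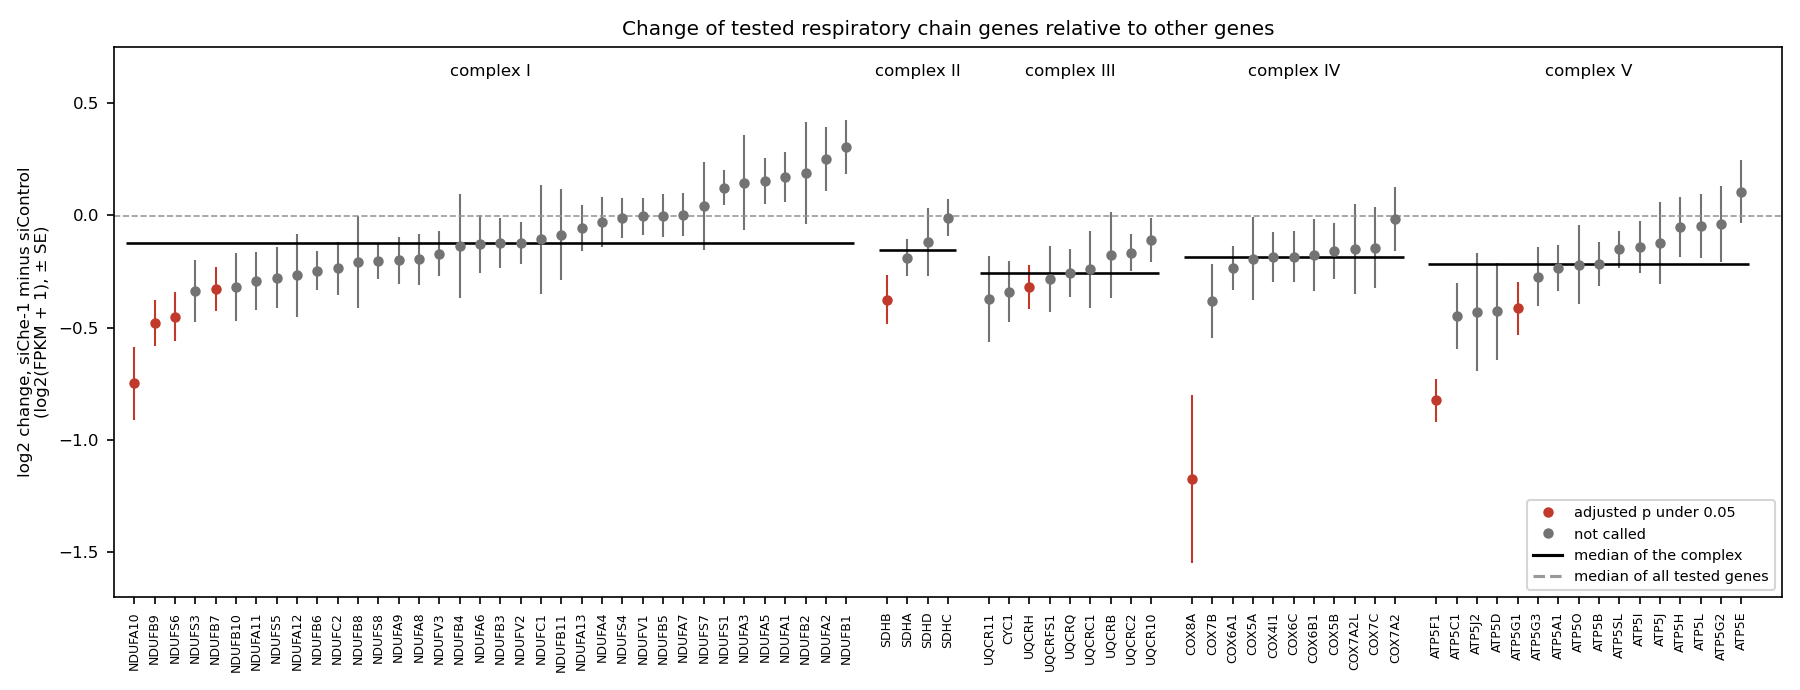
Log2 change (siChe-1 minus siControl, on the log2(FPKM + 1) scale after rescaling, ± SE) of the tested members other than 1 complex I gene that is not shown, sorted within each complex on the horizontal axis. Red points have an adjusted p under 0.05 in limma, black lines mark the median of each complex and the dashed line the median of all 6285 genes. The 9 red points lie below 0, and nearly all points above 0 belong to complex I.

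The lean was seen in each complex by its median, which was -0.12 in complex I, -0.15 in complex II, -0.26 in complex III, -0.18 in complex IV and -0.22 in complex V. All 4 tested members of complex II, all 9 of complex III and all 11 of complex IV were below 0, as were 15 of 16 in complex V and 27 of 37 in complex I. The medians depend on the scaling: with the deposited scaling they were -0.22 in complex I and -0.35 in complex III, and with a correction for length and GC content complex I was at -0.02. Of the 68 members not called, 24, with log2 changes of at most 0.21 in size, changed sign in at least 1 of 13 alternatives, among them SDHC, UQCR10, COX7A2 and COX7A2L of complexes II to IV. Summed FPKM as deposited showed the same order of groups. The complex I genes together gave 4020, 4203 and 4005 FPKM in siChe-1 libraries, against 4298, 4787 and 4894 in siControl libraries. The complex III genes gave 1418, 1368 and 1421 FPKM in siChe-1 libraries, against 1769, 1729 and 1907 in siControl libraries. The groups did not overlap in either complex.

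Complex II gave 286 ± 24.2 FPKM in siChe-1 cells and 342 ± 23.6 FPKM in siControl cells (SD, n = 3 each). Complex IV gave 3003 ± 210 FPKM in siChe-1 cells and 3772 ± 341 FPKM in siControl cells (SD, n = 3 each). Complex V gave 4052 ± 327 FPKM in siChe-1 cells and 5057 ± 525 FPKM in siControl cells (SD, n = 3 each). In these 3 complexes, too, each siChe-1 library lay below each siControl library. Sums weigh the abundant genes most, and on the deposited scaling the median of all genes is itself at -0.09, so part of each gap is shared by all genes. The summed FPKM of all genes also kept the groups apart, at 506683 to 516610 in siChe-1 libraries and 554641 to 603748 in siControl libraries. The sums of the complexes were not rescaled, so they do not show a change relative to other genes. After rescaling, the median deviation of the members was -0.16, -0.11 and -0.25 in the siChe-1 libraries, against -0.11, 0.09 and 0.03 in the siControl libraries. The second siChe-1 library and the first siControl library then lay level.

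**Figure D2:**
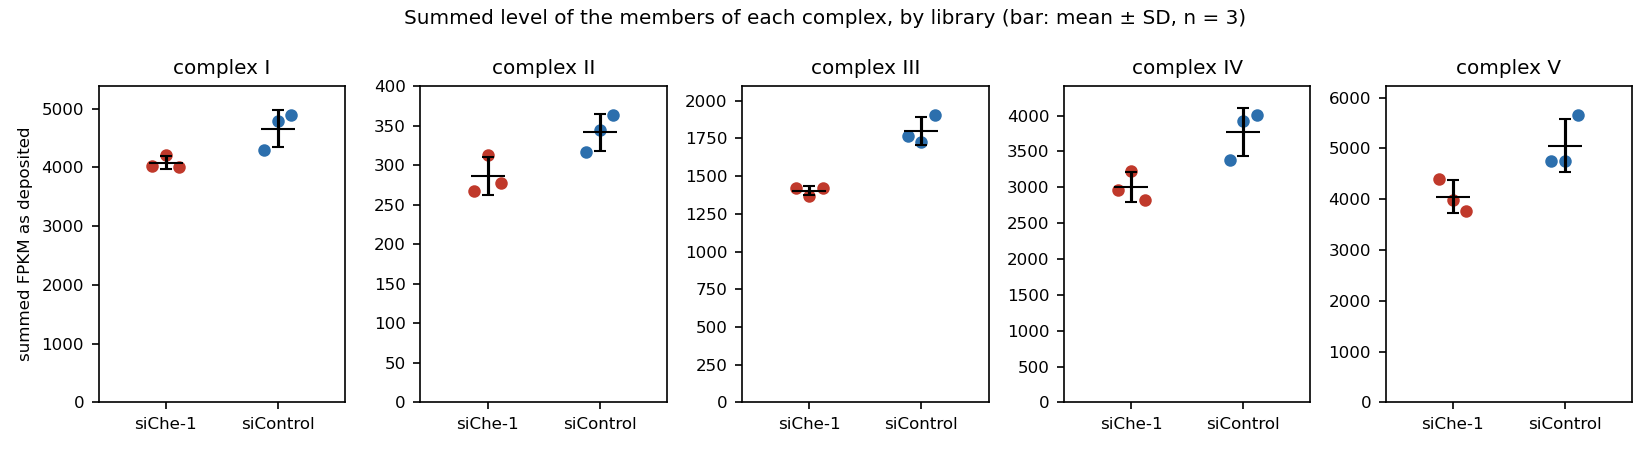
Summed FPKM as deposited (vertical axis, from 0) of the members of each complex in each library, with siChe-1 in red and siControl in blue. Horizontal bars are the mean and error bars the SD of 3 libraries. In each complex the 3 siChe-1 libraries lie below the 3 siControl libraries, and the summed FPKM of all genes separates the groups in the same way.

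The members are short transcripts, with a median length of 948 bases and 49.8% GC, against 2841 bases and 45.7% GC over all tested genes. With a correction for length and GC content, chosen after seeing the data, the median of the 75 members with a length was -0.08 and 7 members were lower, of which 5 (ATP5F1, ATP5G1, COX8A, NDUFA10 and SDHB) are among the 9. Then 3 members of complex I were higher: NDUFA1 (0.29 ± 0.10), NDUFA2 (0.38 ± 0.12) and NDUFB2 (0.32 ± 0.10; log2 ± SE, limma adjusted p = 0.0498, 0.0465 and 0.0468). Without that correction these 3 genes had log2 changes of 0.17, 0.25 and 0.19 and were not called. With the correction, 1102 of 6149 genes were lower and 1121 higher, against 7 and 3 of the 75 members. How far transcript length or GC content shapes the lean of the other members was not tested.

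The member with the clearest difference was ATP5F1, which encodes subunit b, the membrane-anchored rod of the peripheral stalk that holds the head of ATP synthase still. Its level was 46.5, 51.5 and 43.2 FPKM in siChe-1 libraries, against 84.6, 90.1 and 93.9 FPKM in siControl libraries. The groups were far apart, with no siChe-1 value above 51.5 and no siControl value below 84.6. The log2 change was -0.82 ± 0.10 (SE; limma adjusted p = 0.00159), and the call held under each of the 13 alternatives tried. In recovered reads, ATP5F1 had 87.5 and 99.5 CPM (reads scaled to library size) in siChe-1 replicates 1 and 2, against 156.2, 172 and 176 in siControl replicates 1, 2 and 3. These groups did not overlap either, and edgeR gave -0.85 ± 0.11 (SE, adjusted p = 0.000204).

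The deposited locus of ATP5F1, hg19 chr1:111982512-112004525 on the plus strand, also holds WDR77, a cofactor of an arginine methyltransferase. Whether reads were assigned by strand is not stated in any source at hand. WDR77 averaged 12.9 ± 1.2 FPKM in siChe-1 cells and 15.9 ± 0.87 FPKM in siControl cells (SD, n = 3 each), a log2 change of -0.19 ± 0.09 that was not called (SE; limma adjusted p = 0.161). ATP5F1 was the only one of the 9 called members to share its deposited locus with another gene, while 11 of the 77 tested members did.

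Promoters of 66 of the 81 subunit genes were found in RefSeq (GRCh38.p14, 250 bases before and 50 after the start). They were searched on both strands for the letters of 4 known motifs: GCGCANGCG (NRF1), CCGGAAG (ETS factors such as GABP), AAGATGGC (YY1) and CTCGCGAGA (the CGCG box). The promoter of ATP5F1 was the only one of the 66 with the CGCG box, which 1.05% of 15843 coding promoters hold. Below are the promoters of ATP5F1, of SDHB and UQCRH, called members with an ETS match, and of NDUFS6, the only called member with an NRF1 match. Capitals mark the motif letters on either strand.
ATP5F1 promoter, GRCh38.p14 chr1:111449214-111449513, plus strand: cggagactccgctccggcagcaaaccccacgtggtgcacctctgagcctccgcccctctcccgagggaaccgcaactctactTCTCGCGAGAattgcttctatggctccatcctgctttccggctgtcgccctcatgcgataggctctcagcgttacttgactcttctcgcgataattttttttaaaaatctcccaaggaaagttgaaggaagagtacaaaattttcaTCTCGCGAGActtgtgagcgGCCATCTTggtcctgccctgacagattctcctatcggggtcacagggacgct
SDHB promoter, GRCh38.p14 chr1:17053983-17054282, minus strand: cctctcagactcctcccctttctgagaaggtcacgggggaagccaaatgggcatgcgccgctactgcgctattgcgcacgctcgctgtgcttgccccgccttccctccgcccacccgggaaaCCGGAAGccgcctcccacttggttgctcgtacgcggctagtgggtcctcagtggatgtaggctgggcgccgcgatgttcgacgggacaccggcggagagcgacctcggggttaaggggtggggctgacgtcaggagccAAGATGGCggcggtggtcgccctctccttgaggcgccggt
UQCRH promoter, GRCh38.p14 chr1:46303448-46303747, plus strand: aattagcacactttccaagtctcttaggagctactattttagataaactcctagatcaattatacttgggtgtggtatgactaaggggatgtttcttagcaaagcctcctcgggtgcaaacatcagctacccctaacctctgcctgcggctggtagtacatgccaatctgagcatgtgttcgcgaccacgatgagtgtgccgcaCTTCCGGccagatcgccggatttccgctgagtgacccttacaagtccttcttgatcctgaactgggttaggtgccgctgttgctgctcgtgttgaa
NDUFS6 promoter, GRCh38.p14 chr5:1801157-1801456, plus strand: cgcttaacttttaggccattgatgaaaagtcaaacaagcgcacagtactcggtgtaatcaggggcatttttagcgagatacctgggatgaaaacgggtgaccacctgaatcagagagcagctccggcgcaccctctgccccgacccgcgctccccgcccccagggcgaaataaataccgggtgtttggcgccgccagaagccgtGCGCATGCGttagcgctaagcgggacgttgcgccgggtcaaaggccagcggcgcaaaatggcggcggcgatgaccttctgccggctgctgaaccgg

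In the ATP5F1 promoter the capitals are the CGCG box, present at 2 places and read there on both strands, and the reverse complement of the YY1 letters next to the start. SDHB holds the ETS letters and, just after the start, the YY1 letters. UQCRH holds the ETS letters on the reverse strand, and NDUFS6 holds the NRF1 letters. Over the 66 member promoters, the NRF1 letters stood in 20 (30.3%, against 11.02% of all coding promoters). The ETS letters stood in 19 (28.8%, against 14.2%) and the YY1 letters in 11 (16.7%, against 3.91%). Of the 8 called members with a promoter, 4 had an ETS match (COX8A, NDUFB7, SDHB and UQCRH), 2 had a YY1 match (ATP5F1 and SDHB) and 1 had an NRF1 match (NDUFS6). The form of the NRF1 and CGCG box motifs was shortened to 9 letters after a search with 10. With a C added at its end, the NRF1 motif stood in 15 member promoters (22.7%, against 8.58% of all) and in 0 called members, so the match of NDUFS6 depends on that choice. With a T added at its start, the CGCG box stood in 1 (ATP5F1), against 0.669% of all coding promoters. These are matches of letters in 1 window per gene and say nothing of binding in these cells.

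In complex I, 4 of 37 tested members fell, against 15.1% of all tested genes called lower. All 4 were accessory subunits that surround the catalytic core, to which only 7 of the 37 tested genes belong. NDUFA10, a subunit of the proton-pumping membrane arm with a nucleoside kinase fold, had 12.8, 9.0 and 11.3 FPKM in siChe-1 libraries, against 23.2, 15.7 and 22.7 FPKM in siControl libraries. The groups were apart, although the second siControl library was well below the other two. The log2 change was -0.75 ± 0.16 (SE; limma adjusted p = 0.0133), and without the third siControl library it was -0.69 and not called (limma adjusted p = 0.0587). NDUFB9, a membrane arm subunit of the LYR family and the most abundant tested complex I gene, had 294, 251 and 276 FPKM in siChe-1 libraries, against 392.3, 390 and 439 FPKM in siControl libraries. Each siChe-1 value was below each siControl value, and the log2 change was -0.48 ± 0.10 (SE; limma adjusted p = 0.0116). Without the third siChe-1 library it was -0.47 and was not called (limma adjusted p = 0.0552).

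NDUFS6, a zinc-binding subunit of the NADH-oxidising arm, had 153, 130 and 124 FPKM in siChe-1 libraries, against 194, 197 and 201 FPKM in siControl libraries. The siControl values were close together and all above the siChe-1 values. The log2 change was -0.45 ± 0.11 (SE; limma adjusted p = 0.0196). Leaving out the second or the third siChe-1 library, or the third siControl library, ended the call (limma adjusted p of 0.0509 to 0.0870, log2 changes of -0.37 to -0.46). NDUFB7, a membrane arm subunit on the side of the intermembrane space, had 85.3, 103 and 97.2 FPKM in siChe-1 libraries, against 126, 130 and 126 FPKM in siControl libraries. The groups were apart, and the log2 change was -0.33 ± 0.10 (SE; limma adjusted p = 0.0404). Its call was lost without any 1 library other than the second siChe-1 library (limma adjusted p of 0.0749 to 0.134, log2 changes of -0.26 to -0.36).

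By module, 1 of 10 members of the N module (which oxidises NADH), 0 of 5 of the Q module (which reduces ubiquinone) and 3 of 21 of the membrane P module were called lower. The medians were -0.07, 0.04 and -0.20. Of all tested genes, 15.1% were called lower, and whether the modules differ was not tested. None of the 7 conserved core subunits encoded in the nucleus was called by limma, and their median log2 change was -0.003. Of these, 4 were below 0 and 3 above. NDUFS3 was at -0.34 and NDUFS8 at -0.20, and they were called lower in 4 and 3 of 13 alternatives. NDUFS1, the largest iron-sulfur subunit, averaged 78.8 ± 2.3 FPKM in siChe-1 cells and 77.1 ± 2.5 FPKM in siControl cells (SD, n = 3 each). The deposited values of NDUFS1 overlapped between the groups. NDUFB1, a small membrane arm subunit, had 285, 275 and 314 FPKM in siChe-1 libraries, against 233, 224 and 303 FPKM in siControl libraries, the highest log2 change among the members at 0.31 ± 0.12 (SE; limma adjusted p = 0.0949). After rescaling, NDUFB1 and NDUFS1 were the 2 members whose siChe-1 values all lay above their siControl values, a pattern that 22.5% of all genes showed, and 16 members (20.8%, against 22.8% of all genes) had all siChe-1 values below.

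Complex II is succinate dehydrogenase, which also belongs to the citric acid cycle. SDHB, its iron-sulfur subunit, had 51.1, 59.0 and 54.3 FPKM in siChe-1 libraries, against 67.5, 74.0 and 88.0 FPKM in siControl libraries. The groups did not overlap, and the log2 change was -0.38 ± 0.11 (SE; limma adjusted p = 0.0360). Without the first or the third siChe-1 library, or the second or the third siControl library, SDHB was not called (limma adjusted p of 0.0622 to 0.122, log2 changes of -0.30 to -0.37). SDHA, the flavoprotein that oxidises succinate, had 59.0, 64.6 and 64.4 FPKM in siChe-1 libraries, against 72.1, 73.7 and 83.5 FPKM in siControl libraries. Its groups did not overlap, but the log2 change of -0.19 ± 0.08 was not called (SE; limma adjusted p = 0.128). Of the membrane anchors, SDHD had 87.3, 119 and 87.9 FPKM in siChe-1 libraries, against 105, 124.7 and 108 FPKM in siControl libraries, which overlap, and SDHC had a log2 change of -0.01 ± 0.08 (SE).

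In complex III, UQCRH, the acidic hinge protein beside cytochrome c1, was both the most abundant member and the only one called in FPKM. It had 597, 657 and 634 FPKM in siChe-1 libraries, against 807, 853 and 854 FPKM in siControl libraries. The groups were apart, and the log2 change was -0.32 ± 0.10 (SE; limma adjusted p = 0.0414). The call was lost when any 1 of the 6 libraries was left out (limma adjusted p of 0.0656 to 0.139, log2 changes of -0.28 to -0.35). UQCRH has a near-identical copy, UQCRHL, which was at 1.8, 1.5 and 1.3 FPKM in siChe-1 libraries, against 2.2, 1.8 and 2.7 FPKM in siControl libraries, and reads may be split between them.

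CYC1, cytochrome c1 itself, had 81.9, 110 and 99.4 FPKM in siChe-1 libraries, against 114, 139 and 141 FPKM in siControl libraries. Its deposited values did not overlap, but the log2 change of -0.34 ± 0.14 was not called (SE; limma adjusted p = 0.0979). In recovered reads, where siChe-1 replicate 3 is absent, CYC1 was called at -0.40 ± 0.11 (SE; edgeR adjusted p = 0.0150). UQCR11, a small accessory subunit, likewise had -0.37 ± 0.19 in FPKM (SE; limma adjusted p = 0.183) and -0.61 ± 0.15 in reads (SE; edgeR adjusted p = 0.00851). The Rieske protein UQCRFS1 (-0.28) and the core proteins UQCRC1 (-0.24) and UQCRC2 (-0.17) were not called on either scale.

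In complex IV, COX8A, the ubiquitous form of the smallest subunit, had the most negative log2 change of all members and also the widest spread. It had 48.04, 88.4 and 64.5 FPKM in siChe-1 libraries, against 92.0, 257 and 165 FPKM in siControl libraries. The highest siChe-1 value and the lowest siControl value nearly met as deposited, and after rescaling the groups overlapped. The log2 change was -1.17 ± 0.37 (SE; limma adjusted p = 0.0489). Without the first or the third siChe-1 library, or the second or the third siControl library, COX8A was not called (limma adjusted p of 0.0676 to 0.140, log2 changes of -0.80 to -1.16). In the authors' deposited table it had a log2 fold of -2.57 and was not called (adjusted p = 0.103).

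COX6A1, the widely expressed form of subunit VIa, had 491, 482 and 443 FPKM in siChe-1 libraries, against 589, 563 and 626 FPKM in siControl libraries. The groups did not overlap, and the log2 change of -0.23 ± 0.10 was not called (SE; limma adjusted p = 0.110). COX7C, the most abundant member of the complex, had 444, 596 and 455 FPKM in siChe-1 libraries, against 476, 686 and 605 FPKM in siControl libraries, which overlap. COX4I1, the regulatory subunit IV, had a log2 change of -0.19, COX5A of -0.19, COX5B of -0.16 and COX6C of -0.18, and none of these was called by limma.

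**Figure D3:**
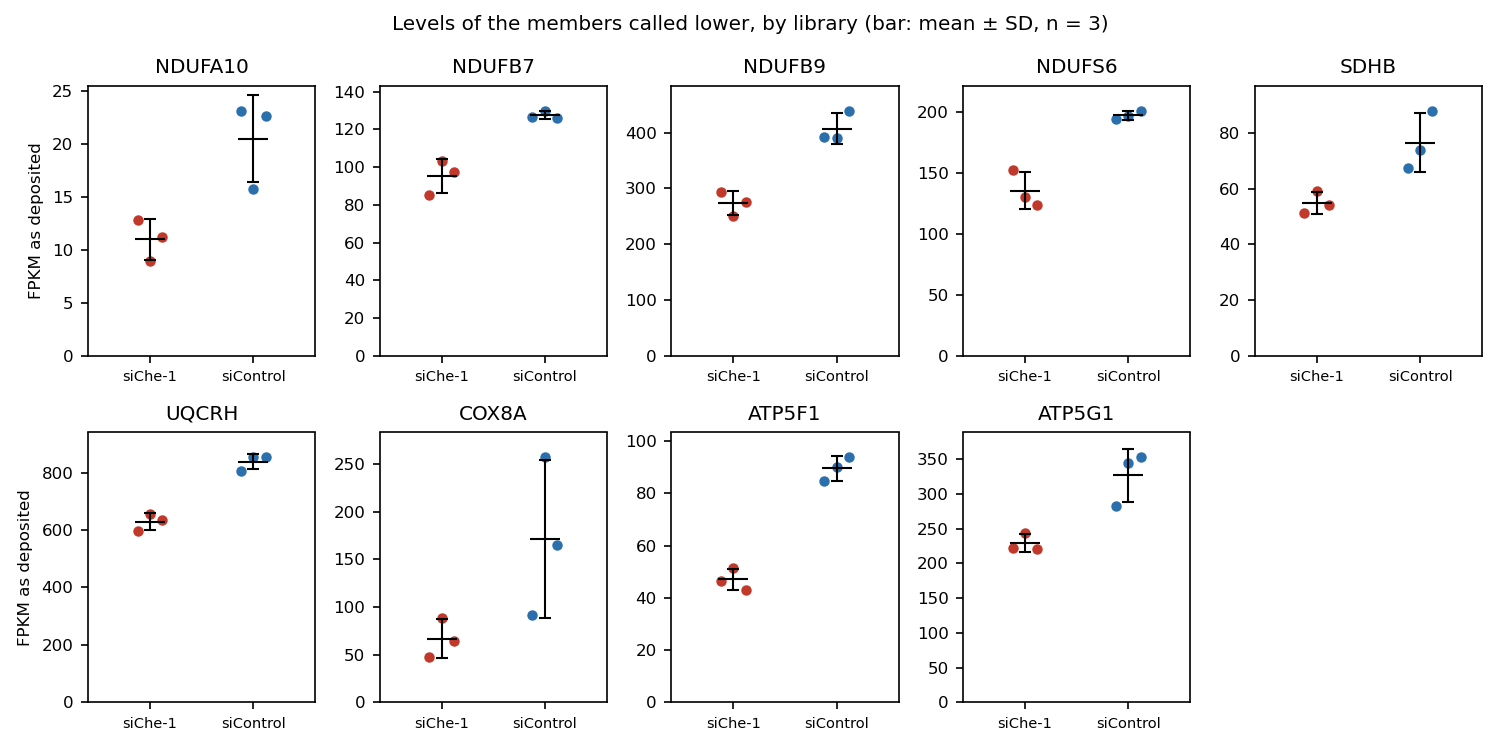
FPKM as deposited (vertical axis, from 0, scaled per gene) of the 9 members called lower, in each siChe-1 library (red) and siControl library (blue), with the mean and SD of 3 libraries. The red points lie below the blue points in each panel, narrowly for COX8A, whose siControl libraries ran from 92.0 to 257 FPKM.

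In ATP synthase, the genes called in FPKM encode parts of the membrane sector and stalk: ATP5F1 and ATP5G1, 2 of 10 tested genes of that part. None of the 5 genes of the F1 head, where ATP is made, was called in FPKM. Of all tested genes, 15.1% were called lower in FPKM. In recovered reads with TMM scaling, 2 of 5 head genes and 3 of 10 genes of the membrane sector and stalk were lower (15.3% of all genes). The median log2 change in FPKM was -0.23 in the head and -0.18 in the membrane sector and stalk. Whether these parts differ was not tested. ATP5A1 (alpha), ATP5B (beta), ATP5C1 (gamma), ATP5D (delta) and ATP5E (epsilon) had log2 changes of -0.23, -0.22, -0.45, -0.43 and 0.11. ATP5C1, the rotating shaft, had 187, 143 and 170 FPKM in siChe-1 libraries, against 270, 196 and 267 FPKM in siControl libraries. Its deposited values did not overlap, and it missed the threshold in FPKM (limma adjusted p = 0.0553) while it was called in reads (-0.57 ± 0.15, SE; edgeR adjusted p = 0.0131). ATP5J2, subunit f and the most abundant of all members, had 921, 576 and 683 FPKM in siChe-1 libraries, against 995, 725 and 1490 FPKM in siControl libraries, which overlap.

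The 3 genes of subunit c, the ring that turns in the membrane, encode the same mature protein behind different import sequences. ATP5G1 had 222, 244 and 221 FPKM in siChe-1 libraries, against 283, 344 and 353 FPKM in siControl libraries. The groups were apart, and the log2 change was -0.41 ± 0.12 (SE; limma adjusted p = 0.0341). The call was lost without the first or the third siChe-1 library, or the second or the third siControl library (limma adjusted p of 0.0818 to 0.128, log2 changes of -0.35 to -0.40). ATP5G2 had 178, 216 and 161 FPKM in siChe-1 libraries, against 173, 239 and 197 FPKM in siControl libraries, which overlap (log2 change -0.04 ± 0.17, SE). ATP5G3, the least abundant, had 26.5, 24.5 and 22.6 FPKM in siChe-1 libraries, against 27.8, 37.5 and 30.8 FPKM in siControl libraries. Its groups were narrowly apart as deposited and overlapped after rescaling. ATP5G3 was not called in FPKM (-0.27 ± 0.13, SE; limma adjusted p = 0.156) and was called in reads (-0.42 ± 0.14, SE; edgeR adjusted p = 0.0406). Whether the change differs between the 3 genes was not tested.

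**Figure D4:**
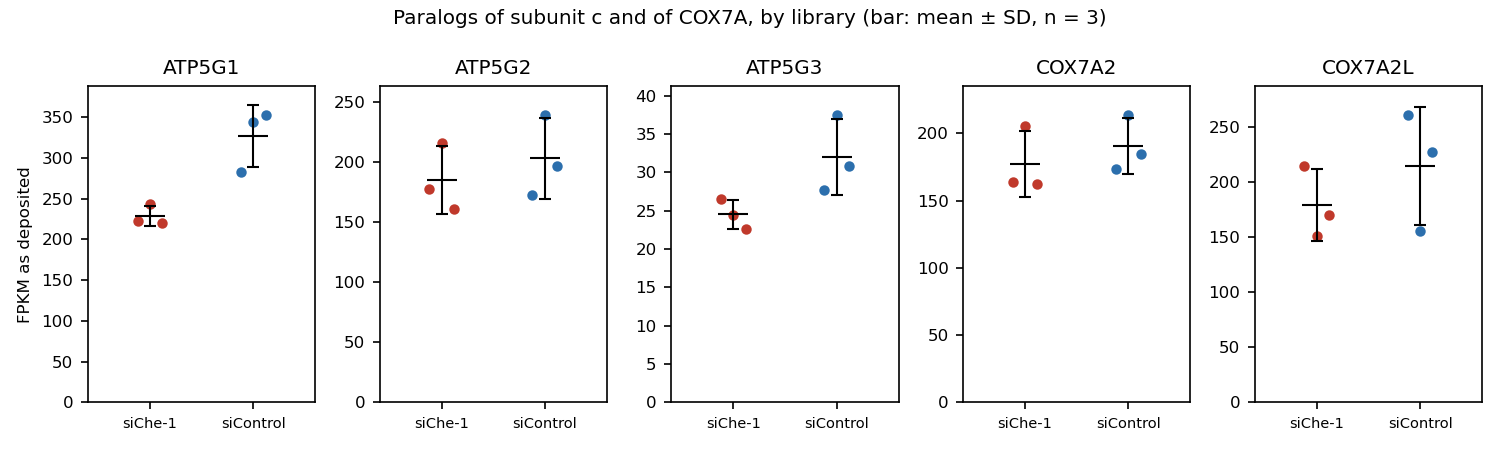
FPKM as deposited (vertical axis, from 0, scaled per gene) of the 3 subunit c genes and of COX7A2 and COX7A2L in each siChe-1 library (red) and siControl library (blue), with the mean and SD of 3 libraries. As deposited, the groups are apart for ATP5G1 and, narrowly, for ATP5G3, which limma did not call, and overlap for ATP5G2, COX7A2 and COX7A2L.

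The forms of complex IV subunits known from heart and skeletal muscle were hardly present. COX7A1 had 0 recovered reads in the 5 libraries of the spike-in table, where a count of 0 allows up to 3 reads per library, and COX6A2 and COX6B2 (a testis form) had spike-in normalised reads of at most 2.2 in any library. Their ubiquitous partners were abundant: COX7A2 averaged 177 ± 24.7 FPKM in siChe-1 cells and 191 ± 20.8 FPKM in siControl cells (SD, n = 3 each). COX6B1 averaged 303 ± 48.2 FPKM in siChe-1 cells and 368 ± 76.9 FPKM in siControl cells (SD, n = 3 each). NDUFA4, once assigned to complex I and now held to be a complex IV subunit, averaged 52.0 ± 5.6 FPKM in siChe-1 cells and 56.5 ± 3.0 FPKM in siControl cells (SD, n = 3 each). Its hypoxia-inducible relative NDUFA4L2 was at 2.2 ± 0.3 FPKM in siChe-1 cells and 2.0 ± 0.8 FPKM in siControl cells (SD, n = 3 each). COX7A2L, a relative of COX7A2 that helps join complexes III and IV, COX7B, COX4I1 and ATP5L were not called by limma either (log2 changes of -0.15, -0.38, -0.19 and -0.05). Many members have processed pseudogenes, which can take a share of their reads.

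By transcript, the 82 members with a level have 132 listed transcripts, and 28 members have more than 1. In the authors' deposited table of transcripts, 28 of the 132 were lower at a q under 0.05 and 0 were higher (21.2% lower, against 10.2% of all 18750 transcripts lower and 8.05% higher), so no member had transcripts called in opposite directions. For ATP5G1, the authors' deposited table gives the main transcript NM_001002027 as 219 FPKM in siChe-1 cells and 303 FPKM in siControl cells (log2 fold -0.47, q = 0.00112), and the minor NM_005175 as 9.86 FPKM in siChe-1 cells and 23.4 FPKM in siControl cells (log2 fold -1.25, q = 0.0929).

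The reads recovered from the spike-in table gave a second measure of the change relative to other genes, from siChe-1 replicates 1 and 2 and the 3 siControl libraries. With TMM scaling, edgeR called 19 of 79 members lower and 0 higher (24.1% lower, against 15.3% of all 12468 genes lower and 13.5% higher). At an unadjusted p under 0.05, 1 member, ATP5S, was higher, and DESeq2 called 19 lower and 0 higher. The 19 included all 9 genes called in FPKM, and the others were NDUFA12, NDUFB10, NDUFS5, CYC1, UQCR11, UQCRQ, COX7B, ATP5C1, ATP5D and ATP5G3. The count fell to 8 without siControl replicate 3. It also fell without either siChe-1 replicate, which leaves 1 library in that group. Shares of all genes were not set beside these counts or that of DESeq2, so they give no comparison with other genes. The libraries overlap with those behind the FPKM, so this is a second reading of the same cells and no independent sample.

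Scaled to the spike-ins, which compare amounts per quantity of added control RNA, nearly every gene was lower in siChe-1 replicates 1 and 2, and the respiratory chain genes went with the rest. Only these 2 siChe-1 libraries enter this scale, with 835414 and 1041244 spike-in reads. The left-out siChe-1 replicate 3 had 379232 spike-in reads, within the siControl range of 351573 to 519573. The fall was not measured in that library. In the authors' deposited table, 65 of 80 members with a mean of at least 10 were lower and 0 were higher, against 63.5% of 12591 genes lower and 0.0635% higher. By the authors' deposited table, 0 members were higher at an unadjusted p under 0.05. Members' log2 folds there ran from -2.57 (COX8A) to -0.82 (ATP5S), with a median of -1.49 against -1.25 over all genes. By complex, the authors' deposited table gave medians of -1.44 in complex I, -1.46 in complex II, -1.58 in complex III, -1.49 in complex IV and -1.50 in complex V. ATP5F1 had a log2 fold of -2.11 (adjusted p = 0.000638) and NDUFA10 of -2.05 (adjusted p = 4.34e-05) in the authors' deposited table.

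The 15 not called by the authors' deposited table were NDUFA2, NDUFA3, NDUFA4L2, NDUFB1, NDUFB2, NDUFB4, NDUFB11, NDUFC1, NDUFS7, COX5A, COX7C, COX8A, ATP5E, ATP5G2 and ATP5S. On recovered reads with the same spike-in factors, edgeR called 78 of 79 lower and 0 higher (84.3% of all genes lower, 0.192% higher), and 0 were higher at an unadjusted p under 0.05. DESeq2 called 79 lower and 0 higher. Without siChe-1 replicate 2 the edgeR count was 41. In bulk RNA, fewer cells of a kind and less RNA per cell cannot be told apart, and a difference in the amount of spike-in added cannot be told apart from either. With 500 ng of total RNA put into each library, this scale gives amounts per cell only if the spike-ins were added per cell.

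**Figure D5:**
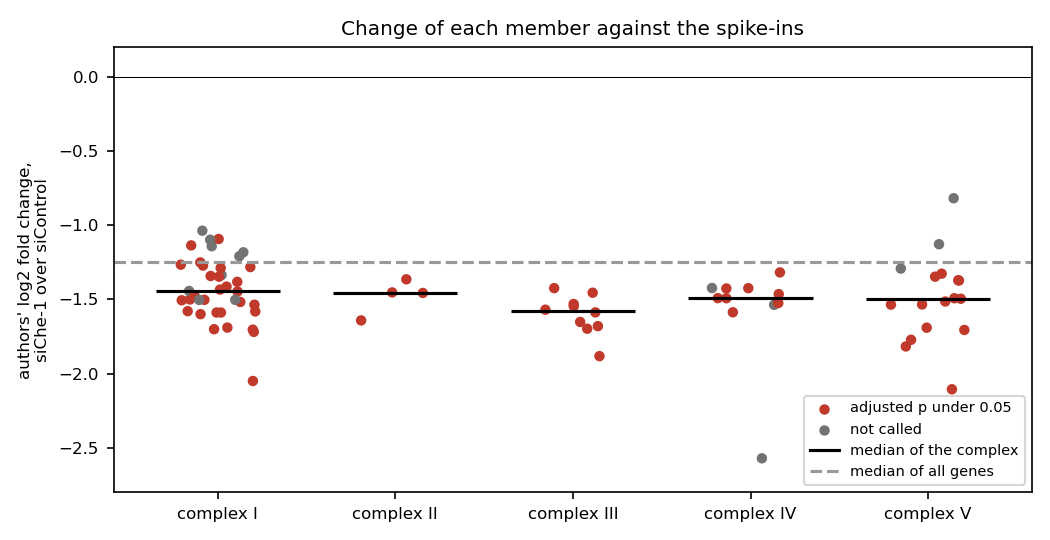
Log2 fold change (siChe-1 over siControl, vertical axis) from the authors' deposited table for the 80 members with a mean of at least 10, by complex. Only siChe-1 replicates 1 and 2 are behind these values. Red points have an authors' adjusted p under 0.05, black lines are the medians of the complexes and the dashed line the median of all genes (-1.25). All 80 points lie below 0, and the 5 medians lie between -1.58 and -1.44.

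Around the chain itself, 85 other genes of the pathway were tested, of which 21 fell and 4 rose in the FPKM fit (24.7% and 4.71%, against 15.1% of all 6285 tested genes lower and 15.1% higher). Of these 25 calls, 6 held when any 1 library was left out: NDUFAF2, PDSS2, DLAT, SUCLA2, IDH2 and MYC. Among complex I assembly factors, which include the member ATP5SL, 3 of 13 fell and 0 rose: NDUFAF2, which stabilises a late intermediate, TMEM126B and TIMMDC1, which help build the membrane arm. NDUFAF2, also the most abundant of them, had 54.0, 41.5 and 50.9 FPKM in siChe-1 libraries, against 95.8, 78.0 and 114 FPKM in siControl libraries. The groups were apart, the log2 change was -0.86 ± 0.14 (SE; limma adjusted p = 0.00515) and the call held in all 13 alternatives. For the other complexes, 1 of 3 complex II factors fell (ACN9, -0.44) and 1 of 5 complex III factors (BCS1L, which inserts the Rieske protein, -0.41). Of 22 complex IV factors, 4 fell (HIGD1A, -0.49; COX11, -0.30; SCO1, -0.27; and SLIRP, -0.64), and of 5 complex V factors 1 rose (ATPAF1, which guides assembly of the head, 0.38 ± 0.09, SE, limma adjusted p = 0.0204). The most abundant genes of these lists were SDHAF2 (complex II), MNF1 (complex III), SLIRP (complex IV) and USMG5 (complex V). USMG5, a small subunit of ATP synthase dimers outside the name rule, averaged 610 ± 131 FPKM in siChe-1 cells and 744 ± 140 FPKM in siControl cells (SD, n = 3 each), and like SDHAF2 (0.17) and MNF1 (-0.14) it was not called. COX11 and SCO1 deliver copper to complex IV, while SLIRP is known to stabilise mitochondrial messenger RNAs and is not limited to complex IV. Leaving out the third siChe-1 library ended the calls of TMEM126B, TIMMDC1, ACN9, HIGD1A, COX11, SCO1, SLIRP and ATPAF1, and leaving out the first those of ACN9, BCS1L, COX11, SCO1 and ATPAF1. TIMMDC1 and SCO1 were also lost without the second siChe-1 library, TIMMDC1 and COX11 without the first siControl library, and COX11, SCO1 and ATPAF1 without the second. Without the third siControl library TIMMDC1, ACN9, BCS1L, SCO1 and SLIRP were lost (limma adjusted p of 0.0520 to 0.119 over all these losses). From the most abundant transcript alone, COX11 was at 0.20 ± 0.28 (SE), and in recovered reads ATPAF1 was at 0.27 and not called (edgeR adjusted p = 0.138).

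Of 9 genes that supply ubiquinone and cytochrome c, 5 fell and 0 rose (15.1% of all tested genes fell and 15.1% rose): PDSS2, PDSS1, COQ2, COQ9 and CYCS. PDSS2, which makes the tail of ubiquinone together with PDSS1, had 8.66, 6.37 and 8.95 FPKM in siChe-1 libraries, against 21.9, 16.4 and 17.4 FPKM in siControl libraries. Its groups were apart and its log2 change was -1.04 ± 0.15 (SE; limma adjusted p = 0.00305). CYCS, cytochrome c, had 82.5, 104 and 87.5 FPKM in siChe-1 libraries, against 131, 138 and 130 FPKM in siControl libraries, also without overlap (-0.45 ± 0.11, SE; limma adjusted p = 0.0218). Of 4 tested subunits and carriers outside the name rule (NDUFAB1, CYCS, USMG5 and C14orf2), all were below 0 and CYCS was the only one called. COQ2 lost its call in 8 and COQ9 in 7 of 13 alternatives, in each case without any 1 library other than the second siControl library. CYCS lost it without the first or the third siChe-1 library or the second or the third siControl library, and PDSS1 without the first or the third siControl library (limma adjusted p of up to 0.108 over these losses).

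In the citric acid cycle, 5 of 18 genes fell and 2 rose (15.1% of all tested genes in each direction). DLAT, the acetyltransferase of pyruvate dehydrogenase, had 18.9, 18.9 and 18.9 FPKM in siChe-1 libraries, against 35.2, 33.1 and 34.1 FPKM in siControl libraries (-0.73 ± 0.07, SE; limma adjusted p = 0.000766). IDH2, the NADP-dependent isocitrate dehydrogenase of mitochondria, had 16.1, 23.1 and 20.7 FPKM in siChe-1 libraries, against 10.2, 11.02 and 11.1 FPKM in siControl libraries (0.91 ± 0.13, SE; limma adjusted p = 0.00280). The groups were apart for both genes, in opposite directions. SUCLA2, MDH2, IDH3B and FH also fell (-0.48, -0.48, -0.45 and -0.33), and OGDH rose (0.28). FH and OGDH each lost the call in 7 of 13 alternatives. With 1 library left out, FH was not called except without the second siControl library, and OGDH and MDH2 were not called without the second or the third siChe-1 library or the first or the third siControl library. IDH3B was not called without the first siChe-1 library (limma adjusted p of 0.0505 to 0.125 over these losses). In recovered reads OGDH was at 0.27 and not called (edgeR adjusted p = 0.0891).

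Of 11 tested regulators, 2 fell and 1 rose (15.1% of all tested genes in each direction). MYC, known to drive genes of mitochondrial biogenesis, had 153, 143 and 138 FPKM in siChe-1 libraries, against 310, 285 and 284 FPKM in siControl libraries (-0.92 ± 0.10, SE; limma adjusted p = 0.00109), and the groups were far apart. TFAM, which packages mitochondrial DNA, fell (-0.35 ± 0.11, SE; limma adjusted p = 0.0402) and GABPB2, a partner of GABPA, rose (0.30 ± 0.07, SE; limma adjusted p = 0.0207). GABPB2 lost its call in 9 of 13 alternatives, among them without any 1 library other than the third siControl library, and TFAM lost it in 7, among them without any 1 library other than the second siControl library (limma adjusted p of 0.0548 to 0.120 over the losses with 1 library left out). In recovered reads GABPB2 was at 0.23 and not called (edgeR adjusted p = 0.126). GABPA, the ETS factor whose letters were searched above, was not called in FPKM (-0.30 ± 0.10, SE; limma adjusted p = 0.0518), and YY1 was not either (-0.39 ± 0.18, SE; limma adjusted p = 0.142). In recovered reads with TMM scaling both were called lower (-0.47 and -0.45; edgeR adjusted p = 0.00611 and 0.00721). There 6 of 16 regulators were lower and 0 higher, against 15.3% of all 12468 genes lower and 13.5% higher. Without the first or the third siChe-1 library, or the third siControl library, the 21 lower calls of the pathway were 11, 8 and 9. Lower calls over all genes were then 600, 500 and 559, against 948 with every library.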

How the data were processed

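Sample titles gave the groups, and the members and gene lists were chosen with earlier results of these data known. Per the submitters' processing notes, the tools were TopHat, Cufflinks and Cuffdiff, plus HTSeq and DESeq2, on hg19, with no versions or roles. The authors' transcript table holds FPKM values, 3 per group with no replicate number (here named by their order in the list), and the authors' log2 ratio with p-values and q-values. The authors' spike-in table holds a signal per gene and group, which is a read count divided by spike-in size factors and averaged, with the authors' fold, log2 fold and p-value. The deposited count table gives reads of 92 spike-ins in each of the 6 libraries.

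FPKM were summed by gene, rescaled by the median of ratios, and tested as log2(FPKM + 1) with limma 3.58.1 (trend, all 6 libraries, mean FPKM of at least 10, Benjamini-Hochberg over 6285 genes). This pseudocount understates changes of low genes. Whole reads were recovered for 16321 of 16444 genes (99.3%), UQCRB being the only member missed. All 2139 low siChe-1 means were whole-read sums with siChe-1 replicates 1 and 2, and 0 were with any other set. The reads were tested with edgeR 4.0.16 (quasi-likelihood, TMM or spike-in scale, mean of at least 10, 12468 genes) and DESeq2 1.42.0 in R 4.3.3. The recovery and the fits were tested on simulated data: of 200 changed genes, limma recovered 41% at a log2 change of 0.5 and 88.5% at 1, and edgeR with TMM 27% and 81.5%. Values per library are given for called members, for the most abundant gene and the pair of smallest p in each complex, and for paralogs. In the wider pathway the gene with the smallest p or the highest level of a list is shown. NDUFAB1 falls outside the name rule, and 1 complex I gene enters the counts and medians but is not reported singly here. Promoters are RefSeq's. Alternatives covered pseudocount, minimum, scaling, transcript choice, each library left out, a replicate block, and length and GC content. FPKM carry no depth, so no counting interval is given.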

Additional observations from a re-analysis of the deposited data

How the results depend on the processing

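Relative to other genes, the members' median log2 change stayed below 0 under every FPKM alternative tried. It was -0.27 with the deposited scaling (all genes -0.09), -0.082 with the length and GC correction, and -0.24 to -0.13 with 1 library left out. The 9 lower calls became 14 of 82 with no minimum and 16 with the deposited scaling. They were 4 with upper quartile scaling, 4 with the most abundant transcript and 2 to 11 with 1 library left out. Over all genes, 948 of 6285 were lower in the main fit and 1579 of 12075 with no minimum. With the deposited scaling 1279 of 6285 were lower, with upper quartile scaling 713 of 6285 and with the most abundant transcript 715 of 5835. With 1 library left out, 500 to 890 of all genes were lower. The members' 0 higher calls became 1 with upper quartile scaling, 0 to 1 with 1 library left out and 3 with the length and GC correction. Higher calls over all genes were 949 in the main fit, 1221 with upper quartile scaling and 1121 of 6149 with the length and GC correction. They were 484 to 853 with 1 library left out. The members called in FPKM or in reads kept their direction in each alternative: 257 of their values stayed on the same side of the threshold and 103 lost the call. Of the 68 members not called in FPKM, 24 changed sign in at least 1 alternative, 11 were called lower in at least 1 and 4 were called higher in at least 1. Medians by complex stayed below 0, and 3 moved by more than the spread between libraries: complex I to -0.22 and complex III to -0.35 with the deposited scaling, and complex I to -0.02 with the length and GC correction. For the 25 called genes of the wider pathway, 235 values kept the call and 89 lost it, and COX11 was at 0.20 with the most abundant transcript. The 21 lower calls of the wider pathway were 8 to 20 with 1 library left out. Its 4 higher calls were 2 with a minimum of 1 or none, 1 with the deposited scaling and 1 to 3 with 1 library left out. Higher calls over all genes were 1444 of 10778 with a minimum of 1, 1465 of 12075 with none and 592 of 6285 as deposited. In reads on the TMM scale, the 19 lower calls were 3 to 17 and the 0 higher calls 0 to 1 with 1 library left out. On the spike-in scale, the 78 lower calls were 41 to 79 with 1 library left out. With the replicate block they were 0, when 58 genes of all were lower and 1 higher. The replicate numbers are not known to pair libraries: deviations of same-numbered libraries correlated at 0.21 and 0.24 over only 2 pairs. With the block, TMM gave 21 lower calls, when 2146 of all 12468 genes were lower and 1842 higher. For reads with 1 library left out, no share of all genes was set beside the counts. The authors' deposited table called 37 members lower at a threshold of 0.01, against 65 at 0.05. Depth limits the muscle forms, which had too few reads to be tested.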
